A study of Homo sapiens with 50 samples.

Results

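The genes described are 10 members of the ATF4-CHOP branch of the integrated stress response: the transcription factors ATF4, DDIT3 (CHOP), ATF3 and CEBPB, and the target genes CHAC1, TRIB3, PPP1R15A, ASNS, SESN2 and NUPR1. They were found as the non-control spots whose gene name was one of these symbols, which gave 14 features (distinct probes) of the 34127 on the array. CHAC1 had 2 features, ATF3 had 4 and each other gene had 1. The genes were selected on these same arrays: CHAC1 and its partners from H1299shRAD9 DBP, BP and DBN cells against unirradiated cells, and NUPR1 from the unirradiated lines against each other. Values from those 4 contrasts are therefore given as a description, with no p.

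The arrays measured total RNA from the human line H1299, derived from a non-small cell carcinoma of the lung, and from H1299shRAD9, the same line made to carry stably a retroviral pSUPER.retro.puro vector for a short hairpin RNA against RAD9, grown under puromycin. RAD9 is a DNA damage checkpoint protein, and the knocked-down cells were clones chosen for low RAD9 protein; the labels do not say which clone gave which sample. Cells on double Mylar dishes received 0 or 1 Gy of 4He ions (125 keV/µm), and RNA was taken at 4 h. CTL cells were sham irradiated. BP cells were unirradiated bystanders in which micronuclei were frequent, and DBP cells were the directly irradiated cells from the facing Mylar surface. BN cells were bystanders in which micronuclei were as rare as the study required of unirradiated cells, and DBN cells were their directly irradiated counterparts. Each of the 10 groups (5 per line) had 5 arrays. The methods call the samples independent, but the labels name no separate cultures, so each p measures the spread between these samples, which may be technical, and the number of arrays limits the precision.

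In the integrated stress response, kinases that sense amino acid shortage, misfolded protein, viral RNA or lack of heme phosphorylate the translation factor eIF2α. Most translation then falls, while ATF4 mRNA is translated more. ATF4 protein, with partners such as CEBPB, switches on DDIT3, ATF3 and genes of amino acid supply and redox balance, and later TRIB3 and PPP1R15A, which damp the response. Because ATF4 is controlled largely in translation, its mRNA need not follow that of its targets.

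Promoters were searched for the binding element of ATF4-C/EBP dimers because the members moved together across arrays. The 250 bases before each start site were read from the RefSeq table of GRCh38.p14, which held 9 of the 10 genes (16 windows) and not NUPR1. The letters TGATGNAA, searched on both strands, were in 1 window each of CHAC1, ATF3 and ASNS, and in 3.14% of all 35116 windows of this length. The cAMP response element TGACGTCA, bound by ATF-family factors, was in the window of PPP1R15A and in 1.65% of all windows. No match elsewhere says only that these letters are absent from the window. The 4 windows that held a match are shown 5′ to 3′ on the strand of the gene, with the match in capitals.
CHAC1, chr15:40953221-40953470 (+): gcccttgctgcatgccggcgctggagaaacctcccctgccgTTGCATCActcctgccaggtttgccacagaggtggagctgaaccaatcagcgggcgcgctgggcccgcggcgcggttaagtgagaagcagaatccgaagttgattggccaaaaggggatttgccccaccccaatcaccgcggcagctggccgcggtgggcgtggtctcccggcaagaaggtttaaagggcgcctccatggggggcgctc
ATF3, chr1:212565157-212565406 (+): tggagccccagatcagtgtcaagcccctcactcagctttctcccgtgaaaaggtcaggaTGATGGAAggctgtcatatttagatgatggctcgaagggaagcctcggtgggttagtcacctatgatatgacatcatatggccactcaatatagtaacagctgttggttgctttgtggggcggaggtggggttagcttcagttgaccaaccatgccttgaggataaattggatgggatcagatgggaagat
ASNS, chr7:97872409-97872658 (-): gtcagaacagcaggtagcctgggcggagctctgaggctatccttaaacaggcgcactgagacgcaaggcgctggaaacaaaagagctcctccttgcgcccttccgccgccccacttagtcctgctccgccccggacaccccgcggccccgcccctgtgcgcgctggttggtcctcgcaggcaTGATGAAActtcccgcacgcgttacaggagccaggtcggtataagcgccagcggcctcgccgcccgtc
PPP1R15A, chr19:48872171-48872420 (+): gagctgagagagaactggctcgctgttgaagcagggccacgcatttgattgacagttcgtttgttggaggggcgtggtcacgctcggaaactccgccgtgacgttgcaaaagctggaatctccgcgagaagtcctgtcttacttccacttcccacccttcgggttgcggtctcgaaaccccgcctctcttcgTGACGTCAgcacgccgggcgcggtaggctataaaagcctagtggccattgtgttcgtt
The match began 209 bases before the start site in CHAC1, 191 in ATF3, 68 in ASNS and 58 in PPP1R15A. In CHAC1 it lay on the opposite strand and reads TTGCATCA.

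Levels are log2 processed intensities minus the median of the array, so they can be compared between arrays but not between probes. Of the 14 member features, 13 passed the filters on background and variation, as did 12206 of all features. The ATF3 feature A_24_P33895, well above background on 25 of 25 H1299 arrays and 9 of 25 H1299shRAD9 arrays, did not pass. RAD9A, the targeted gene, averaged 4.01 ± 0.13 (SD, n = 5) in H1299 CTL and 3.65 ± 0.19 in H1299shRAD9 CTL, and over all 25 arrays a line it overlapped between lines (2.90 to 4.58 and 3.34 to 4.26). It varied too little to pass the variation filter and was not tested. Keratin genes KRT8 and KRT18 and VIM were above background on all arrays, whereas the epithelial marker EPCAM was on 4 H1299 and 1 H1299shRAD9 arrays and the stromal marker LUM on none. Of the leukocyte markers, 2 of 5 PTPRC features were above background on all arrays and 3 on at most 2. Between 55.4% and 83.4% of probes were well above background, on 13 slides. In bulk RNA, fewer responding cells and less RNA per cell cannot be told apart.

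The arrays did not fall evenly within groups. In H1299, all 10 members lay above their H1299 median on CTL 1, CTL 2, DBP 2, BP 2, DBN 2, BN 1 and BN 2, and 9 of 10 did on DBP 1. Among replicates 3 to 5, DBP 4 had 9 and DBN 5 had 8 above it. The exceptions among replicates numbered 1 and 2 were BP 1, with 3 of 10, and DBN 1, with 5 of 10. BP 1 had the lowest median intensity of all arrays (68.4) and DBN 1 the largest share of probes above background (83.4%). Slide 9 held CTL 1, DBP 1 and DBN 2, which were high, and BP 1, which was low. In H1299shRAD9 the arrays with all 10 members above the line's median were DBP 3, BP 3, DBN 3, DBN 5 and BN 5, while DBP 4 and DBN 4 had 9 and DBP 5, BP 4, BP 5 and BN 4 had 8. The part of culture, RNA or slide in these differences was not tested, and member results that rest on replicates 1 and 2 are given with and without them.

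CHAC1 encodes a γ-glutamylcyclotransferase that degrades glutathione and is one of the most inducible targets of ATF4. The brighter CHAC1 feature (A_33_P3376971, chr15:41248631-41248690 in hg19) read 6.40, 7.56, 3.08, 2.94 and 3.42 in H1299 CTL replicates 1 to 5. In H1299 DBP it read 6.68, 6.63, 3.35, 4.00 and 4.20, and in BP 3.73, 6.76, 3.04, 3.39 and 3.60. In H1299 DBN it read 4.55, 7.27, 3.27, 3.89 and 3.85, and in BN 6.66, 7.37, 3.03, 3.68 and 3.50. Each H1299 group therefore held at least 1 array above 6 among replicates 1 and 2, while replicates 3 to 5 read 4.20 or less, and the 5 H1299 groups overlapped throughout.

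H1299shRAD9 CTL arrays were low and close together for CHAC1, at 2.78, 2.72, 3.51, 3.39 and 3.22. In DBP CHAC1 read 3.24, 3.72, 6.49, 5.46 and 4.85, and in BP 3.27, 3.29, 5.86, 4.56 and 4.56. In DBN it read 4.51, 2.92, 5.19, 4.63 and 6.07, and in BN 3.76, 2.99, 4.09, 4.25 and 5.90. Every irradiated or bystander array was above the CTL array of its own number, but the lowest arrays of each group lay within the CTL range. Here the highest arrays were among replicates 3 to 5, whereas in H1299 they were among replicates 1 and 2. Ordered by mean, the groups ran H1299 DBP 4.97 ± 1.57 (SD, n = 5), H1299 BN 4.85 ± 2.01, H1299shRAD9 DBP 4.75 ± 1.31, H1299 CTL 4.68 ± 2.15, H1299shRAD9 DBN 4.66 ± 1.16, H1299 DBN 4.57 ± 1.58, H1299shRAD9 BP 4.31 ± 1.08, H1299shRAD9 BN 4.20 ± 1.07, H1299 BP 4.10 ± 1.51 and H1299shRAD9 CTL 3.12 ± 0.36. No step between neighbours in this order exceeded their pooled SD.

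**Figure D1:**
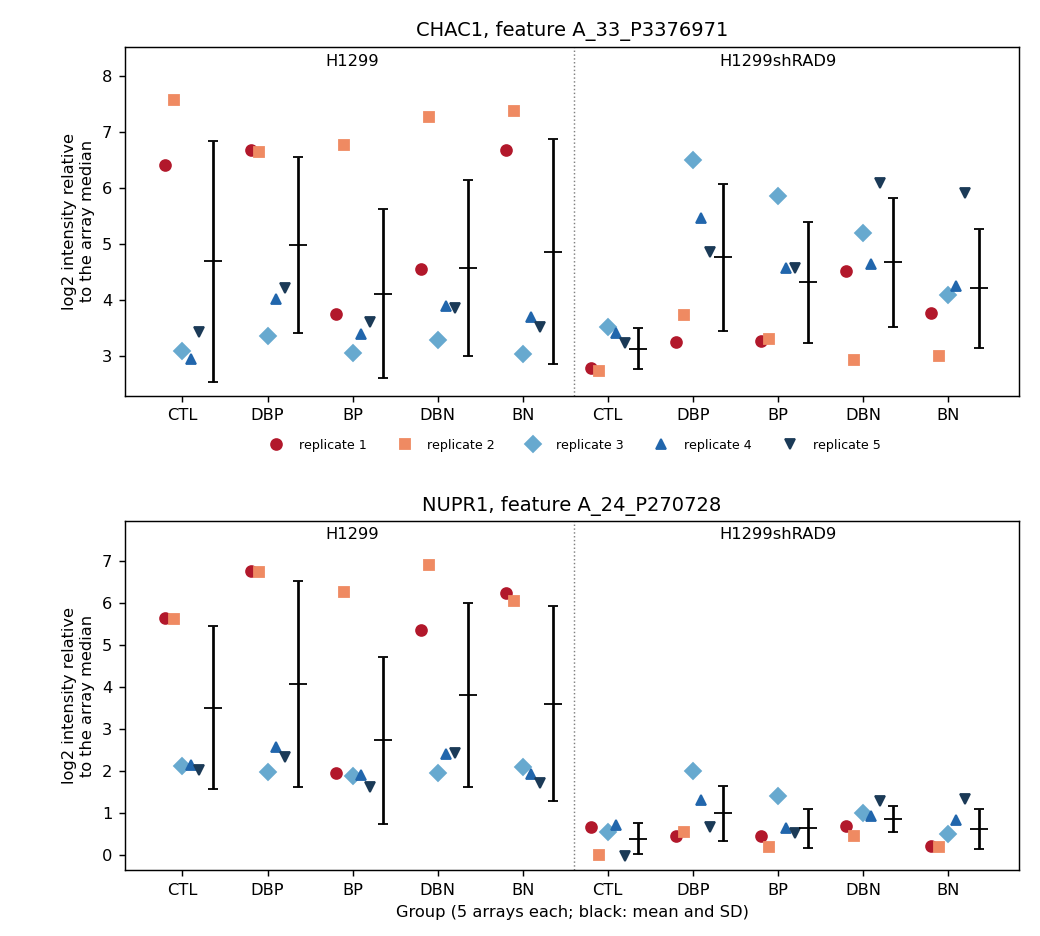
CHAC1 and NUPR1 levels (log2 intensity relative to the array median, y axis) on each of the 50 arrays, by group (x axis), with the mean and SD in black and a symbol for each replicate number. CHAC1 was between 2.72 and 3.51 in H1299shRAD9 CTL and reached 6.49 in DBP, while NUPR1 split H1299 arrays into those above 5 and those below 3 and went no higher than 1.99 in H1299shRAD9.

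NUPR1 encodes a small chromatin-associated protein made in stressed cells. Its feature (A_24_P270728, chr16:28548821-28548880 in hg19) read 5.64, 5.62, 2.12, 2.14 and 2.03 in H1299 CTL, and 6.77, 6.75, 1.99, 2.57 and 2.32 in DBP. It read 1.95, 6.27, 1.89, 1.92 and 1.62 in H1299 BP, 5.36, 6.90, 1.95, 2.41 and 2.44 in DBN, and 6.23, 6.05, 2.11, 1.92 and 1.71 in BN. Replicates 1 and 2, apart from BP 1, thus read 5.36 or more, and every other H1299 array read 2.57 or less.

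In H1299shRAD9, NUPR1 read 0.67, 0.00, 0.55, 0.73 and -0.02 in CTL, 0.45, 0.54, 1.99, 1.32 and 0.67 in DBP, and 0.45, 0.19, 1.40, 0.64 and 0.52 in BP. It read 0.69, 0.46, 0.99, 0.92 and 1.28 in DBN and 0.22, 0.19, 0.49, 0.84 and 1.32 in BN. All 5 H1299 groups had higher means (2.73 to 4.08) than all 5 H1299shRAD9 groups (0.39 to 0.99), and the step between H1299 BP and H1299shRAD9 DBP, 1.74, was the only one between neighbouring groups larger than their pooled SD.

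Among the transcription factors, ATF4 mRNA lay between 9.11 and 11.1 in H1299 and between 9.78 and 10.5 in H1299shRAD9. In H1299 it followed the same split as its targets, with a mean of 10.35 on replicates 1 and 2 and 9.57 on replicates 3 to 5, and 9 of the 10 former arrays above all of the latter. DDIT3, which encodes CHOP, spanned 2.34 to 6.92 in H1299 and 2.07 to 4.36 in H1299shRAD9. The brightest ATF3 feature, A_23_P34915, spanned 2.62 to 6.10 and 1.41 to 4.92. Features A_33_P3214096 and A_33_P3214105 of ATF3 spanned 0.03 to 1.48 and -0.11 to 1.56 in H1299, and the probes of this gene did not all move together. CEBPB, a partner of ATF4, spanned 4.39 to 7.89 in H1299 and 4.53 to 6.10 in H1299shRAD9. DDIT3, CEBPB and this brightest ATF3 feature each had their highest value on an H1299 array numbered 2, and ATF4 had the narrowest range of the 10 brightest features in both lines.

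Among the targets, TRIB3, a pseudokinase that restrains ATF4 and CHOP, spanned 6.17 to 10.8 in H1299 and 5.43 to 7.82 in H1299shRAD9. PPP1R15A (GADD34), which directs a phosphatase to eIF2α, spanned 2.32 to 5.46 and 2.13 to 3.46. ASNS, asparagine synthetase, spanned 8.14 to 11.7 and 7.92 to 9.64. SESN2, an inhibitor of mTORC1 signalling, spanned 1.41 to 5.15 and 0.45 to 3.06. In each of these genes the H1299 range was wider than that of H1299shRAD9.

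**Figure D2:**
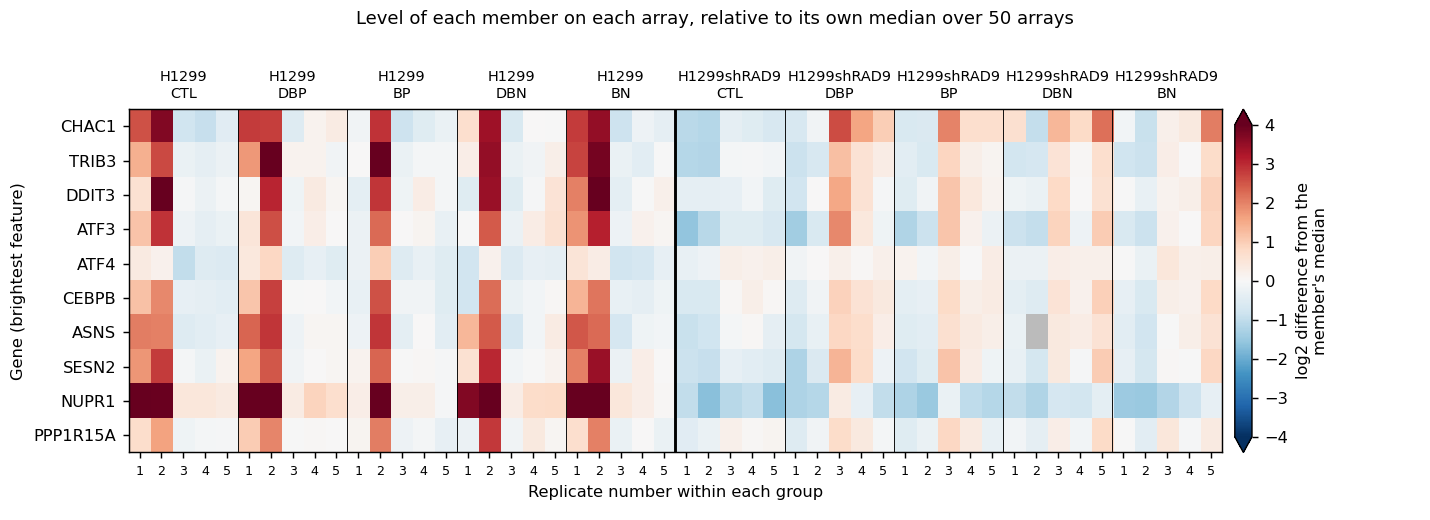
Level of the brightest feature of each member (rows) on each array (columns, grouped by line and exposure), as the log2 difference from that member's median over the 50 arrays; the colour scale ends at 4 and grey marks a missing value. H1299 replicates 1 and 2 were high for nearly all members except in BP 1 and DBN 1, H1299shRAD9 replicates 3 to 5 were above replicates 1 and 2 for most members, and ATF4 had the palest colours.

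The first comparison asked whether directly irradiated and bystander H1299shRAD9 cells differed from unirradiated cells of their line. CHAC1 (A_33_P3376971) was higher by 1.63 ± 0.32 on the log2 scale (SE) in DBP, a 3.09-fold difference, by 1.18 ± 0.25 in BP (2.27-fold) and by 1.54 ± 0.32 in DBN (2.90-fold), and its second feature by 1.48, 1.02 and 1.34. ASNS was higher by 0.58 in DBP, 0.49 in BP and 0.56 in DBN, TRIB3 by 0.64, 0.54 and 0.49, and SESN2 by 0.62, 0.62 and 0.69. ATF4 mRNA differed by 0.04, 0.09 and 0.01. These values chose the genes and are a description.

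A feature is called where limma's p is under 0.006 with a false discovery rate (FDR) under 10% over all features. By that threshold 1.78% of all features were called in DBP, 2.33% in BP and 4.78% in DBN. The calls took in CHAC1 in all 3 contrasts, ASNS in DBP and BP and TRIB3 in DBN, 2 of 13 member features in each, which the selection of the genes on these contrasts fixed in part, so these counts are no test and support nothing. The median difference of the 13 features was 0.59, 0.49 and 0.49, beside 0.02, 0.00 and -0.02 over all features. Without the pairing of arrays by replicate number none of the 6 calls passed, and 14, 0 and 108 of all features did in DBP, BP and DBN. Leaving out any 1 of replicates 2 to 5 left 1 or none of the 6. Over all features it left 0 to 15 in DBP, 0 to 199 in BP and 22 to 661 in DBN. With replicates 3 to 5 alone none of all features passed, although CHAC1 was higher by 2.23 in DBP, 1.61 in BP and 1.92 in DBN. Within slides that held both groups, CHAC1 exceeded CTL by 2.01 and 1.63 in DBP (slides 2 and 3), by 1.1 and 1.33 in BP (the same slides) and by 1.76 in DBN (slide 1).

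**Figure D3:**
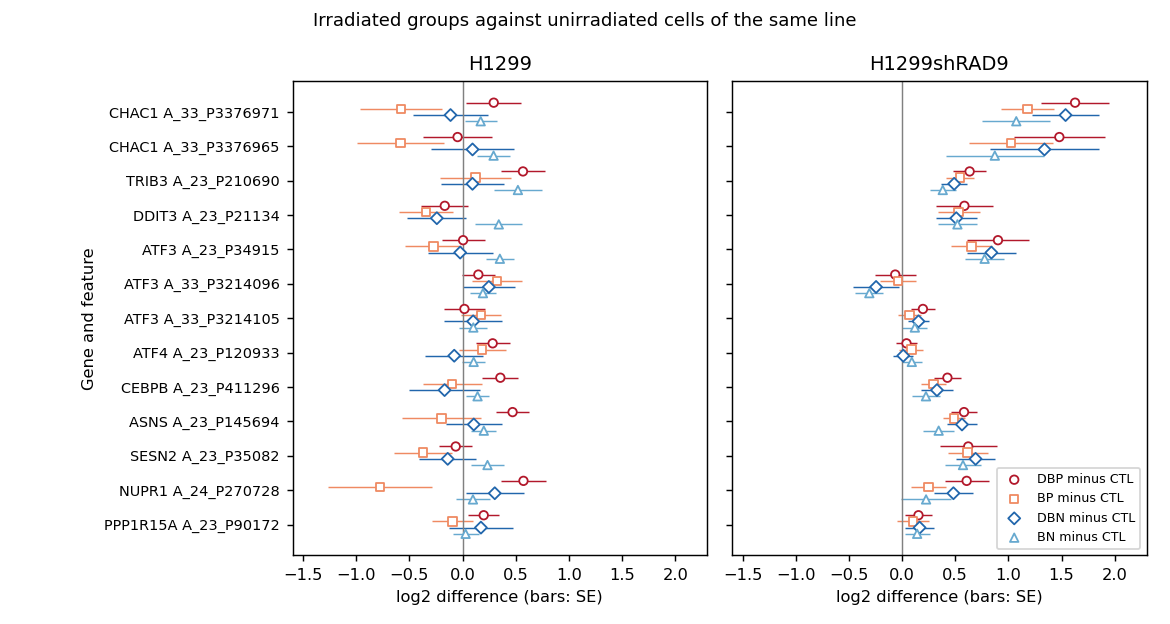
Log2 difference of each member feature from the unirradiated cells of its line (x axis; bars are SE), for the 4 irradiated or bystander groups of H1299 (left) and H1299shRAD9 (right). In H1299shRAD9 CHAC1 feature A_33_P3376971 lay between 1.07 and 1.63 and ATF4 between 0.01 and 0.09, and in H1299 the same CHAC1 feature lay between -0.58 and 0.29.

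H1299shRAD9 BN cells, the bystanders with few micronuclei, were not used to select the genes, but they are compared with the same CTL arrays. None of the 13 features was called by limma, and 0.0492% of all features were. An unadjusted p under 0.05 was found for 5 of the 13, beside 1745 of all 12206 features. CHAC1 was higher than CTL by 1.07 ± 0.32 (2.11-fold, 5 of 5 pairs, limma adjusted p = 0.215). ATF3 (A_23_P34915) was higher by 0.78 ± 0.18 (adjusted p = 0.157 in limma), SESN2 by 0.57, DDIT3 by 0.52 and TRIB3 by 0.38. These 5 features and ASNS, at 0.34, were positive in 5 of 5 pairs. The median over the members was 0.34, beside -0.01 over all features. Within slide 3, which held BN 5 and CTL 5, CHAC1 differed by 2.68, and within slide 1 by 1.01.

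In H1299 the same question was asked with 4 comparisons that played no part in choosing the genes, and no member was called by limma in any of them. Over all features 0.0573% were called in DBP and 0.0164% in DBN, and 0% in each bystander group. In DBP, 3 of 13 member features had an unadjusted p under 0.05, beside 764 of all 12206 features. ASNS was higher by 0.47 ± 0.16 (5 of 5 pairs), TRIB3 by 0.57 ± 0.21 (5 of 5 pairs) and NUPR1 by 0.57 ± 0.21 (4 of 5 pairs), each with limma adjusted p = 0.747. CHAC1 differed by 0.29 ± 0.26 (limma adjusted p = 0.801). In BN the count was 2, beside 340 of all features, with ATF3 higher by 0.35 and TRIB3 by 0.52 (limma adjusted p = 0.999 for both). In BP and DBN it was 0, beside 711 and 424 of all features.

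H1299 BP had the lowest values: CHAC1 differed from CTL by -0.58 ± 0.39 and NUPR1 by -0.78 ± 0.49 (limma adjusted p = 0.793 and 0.792). The difference was widest in replicate 1, where CHAC1 differed by -2.67 and NUPR1 by -3.69 from CTL on slide 9. Without the BP 1 array, NUPR1 in BP differed from CTL by -0.05, and with replicates 3 to 5 alone CHAC1 differed by 0.20. With replicates 3 to 5 alone, CHAC1 in DBP was higher than CTL by 0.71 ± 0.17, beside 2.23 in the same replicates of H1299shRAD9, and the difference between the lines in this effect was not tested. All 13 features were then positive in DBP and DBN, and again none was called.

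Directly irradiated and bystander cells were then compared. In H1299shRAD9 the DBP, BP and DBN arrays had also served to select the genes, and the BN arrays had not. The selection could therefore favour DBN over BN, so the p values of this line are no independent test. No member was called by limma in any of the 4 comparisons. Over all features 0.0983% were called between DBP and BP and 0.131% between DBN and BN of H1299shRAD9, and 0% in both comparisons of H1299. In H1299shRAD9, CHAC1 was higher in DBP than in BP by 0.45 ± 0.14 (4 of 5 pairs, limma adjusted p = 0.83) and higher in DBN than in BN by 0.46 ± 0.17 (4 of 5 pairs, limma adjusted p = 1). Counting both features of CHAC1, and NUPR1 at 0.36 ± 0.13 in DBP over BP (limma adjusted p = 0.905), 3 and 2 features had an unadjusted p under 0.05. Of all 12206 features 563 and 315 did. The exceptions to the direction in CHAC1 were replicate 1 of DBP and BP, at 3.24 and 3.27, and replicate 2 of DBN and BN, at 2.92 and 2.99.

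On slides that held both, CHAC1 in H1299shRAD9 was 0.19 to 0.90 higher in DBP than in BP (4 slides), and it was -0.08, 0.74 and 0.75 from BN in DBN. In H1299, DBP exceeded BP by 0.87 ± 0.39 for CHAC1 (4 of 5 pairs) and 1.35 ± 0.62 for NUPR1 (5 of 5 pairs), with limma adjusted p = 0.723 for both, and no member feature had an unadjusted p under 0.05 in either comparison of H1299. The NUPR1 difference was 4.82 in replicate 1. Without the BP 1 array it was 0.48, not called but with an unadjusted p under 0.05, and it was also 0.48 with replicates 3 to 5 alone. Both omissions were chosen after the levels had been seen, so that p supports nothing. Between H1299 DBN and BN, 10 of 13 features were lower in DBN (median -0.20), and DDIT3 differed by -0.58 (limma adjusted p = 1). On slide 8, DBN 1 differed from BN 1 by -2.11 for CHAC1, -2.42 for TRIB3 and -2.49 for DDIT3, whereas with replicates 3 to 5 alone 12 of 13 features were higher in DBN (median 0.20).

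**Figure D4:**
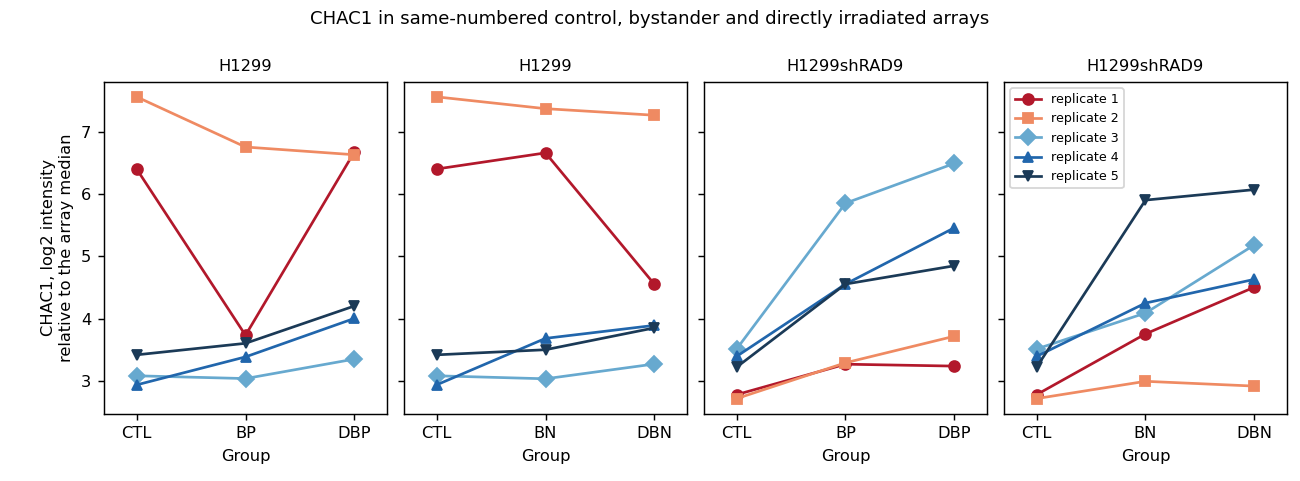
CHAC1 (A_33_P3376971, log2 intensity relative to the array median, y axis) in unirradiated, bystander and directly irradiated cells (x axis), with a line joining the arrays of each replicate number. In H1299shRAD9 the lines rose from CTL to bystander cells in all 10 cases and on to directly irradiated cells in 8 of 10, and in H1299 replicate 1 fell to 3.73 in BP.

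The last comparison set the cell lines against each other in each exposure. NUPR1 was lower in H1299shRAD9 than in H1299 in every group. The difference was -3.09 ± 0.88 in DBP (8.50-fold, limma adjusted p = 0.0621), -2.94 ± 0.72 in DBN (7.68-fold, adjusted p = 0.0512 in limma) and -2.99 ± 0.80 in BN (7.96-fold, limma adjusted p = 0.0389), and these 3 were called. In BP it was -2.09 ± 0.72 (4.26-fold, limma adjusted p = 0.0944) and was not called, its unadjusted p being over 0.006. NUPR1 had been selected on the difference between the same lines when unirradiated. The irradiated arrays are others, but they repeat that contrast of lines, so these p values are no independent test. The groups did not overlap in BP, DBN and BN and met at 1.99 in DBP. Of 3 leukocyte marker features tested, 1 was called higher in H1299shRAD9 in BP, and PTPRC A_33_P3309526 had a median level of 0.05 over the H1299 arrays and 0.91 over the H1299shRAD9 arrays. Its part in the result was not tested. No other member feature was called, while 7.39%, 8.5%, 5.55% and 9.39% of all features were called in the DBP, BP, DBN and BN comparisons.

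The size of the NUPR1 difference depended on replicates 1 and 2. Leaving out replicate 1 ended all 3 calls, with differences of -2.28 (FDR = 0.125) in DBP, -2.51 (0.111) in DBN and -2.24 (0.102) in BN from limma. Leaving out replicate 2 ended the calls in DBP (-2.31) and BN (-2.28), gave one in BP (-1.09, limma FDR = 0.027), and leaving out replicate 3 ended that in DBN (-3.44, FDR = 0.106) and replicate 5 that in DBP (-3.44, FDR = 0.113). Background correction by normexp also ended the calls in DBP (-2.70) and BN (-2.18). Over all features normexp called 191 in DBP and 0 in BN, beside 902 and 1146 in the main fit. The direction of the NUPR1 difference was the same under every alternative run. On slide 8, the only one to hold the same exposure of both lines, NUPR1 on the H1299shRAD9 BP array differed by -1.17 from that on the H1299 BP array.

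The other members were mostly lower in H1299shRAD9 with all 5 replicates and mostly higher without replicates 1 and 2. Medians over the 13 features were -0.50, -0.28, -0.41 and -0.83 in that order of exposures, beside 0.14, 0.14, 0.17 and 0.17 over all features. With replicates 3 to 5 alone, they were 0.61, 0.54, 0.47 and 0.50, with 12 of 13 features positive in each. That choice was made after the levels had been seen, and it takes away the high arrays of H1299 and low ones of H1299shRAD9, so it moves the difference upward by construction and its values are given with no test. CHAC1 was then higher in H1299shRAD9 by 1.75, 1.65, 1.62 and 1.34, again in that order, against -0.22, 0.20, 0.10 and -0.65 with all 5 replicates. ATF4 was higher by 0.59, 0.61, 0.64 and 0.89. NUPR1 kept its direction, the 4 differences being -0.97, -0.96, -1.20 and -1.03 in the same order. Whether replicates 1 and 2 of one line match those of the other in culture or day was not given in the sources used here.

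In unirradiated cells, the contrast from which NUPR1 was taken, NUPR1 differed by -3.12 ± 0.70 on the log2 scale in H1299shRAD9 (8.71-fold lower), and by -1.67 with replicates 3 to 5 alone. The lines did not overlap in 4 of 13 member features, NUPR1, SESN2, ATF3 A_23_P34915 and ATF3 A_33_P3214096. The share of all features without overlap was not counted. CHAC1, ATF3 (A_23_P34915), SESN2, DDIT3 and TRIB3 differed by -1.56, -1.51, -1.48, -1.16 and -1.15, whereas ATF4 was higher by 0.32 and the median over all features by 0.10. In the same 3 replicates CHAC1 was higher by 0.23, TRIB3 by 0.20 and ATF4 by 0.89, and SESN2 differed by -0.34. ATF3 feature A_33_P3214096 was 0.78 higher. Of all features 15.5% were called in this contrast, NUPR1 and that ATF3 feature among them, and since NUPR1 was taken from it the count of 2 of 13 supports nothing.

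**Figure D5:**
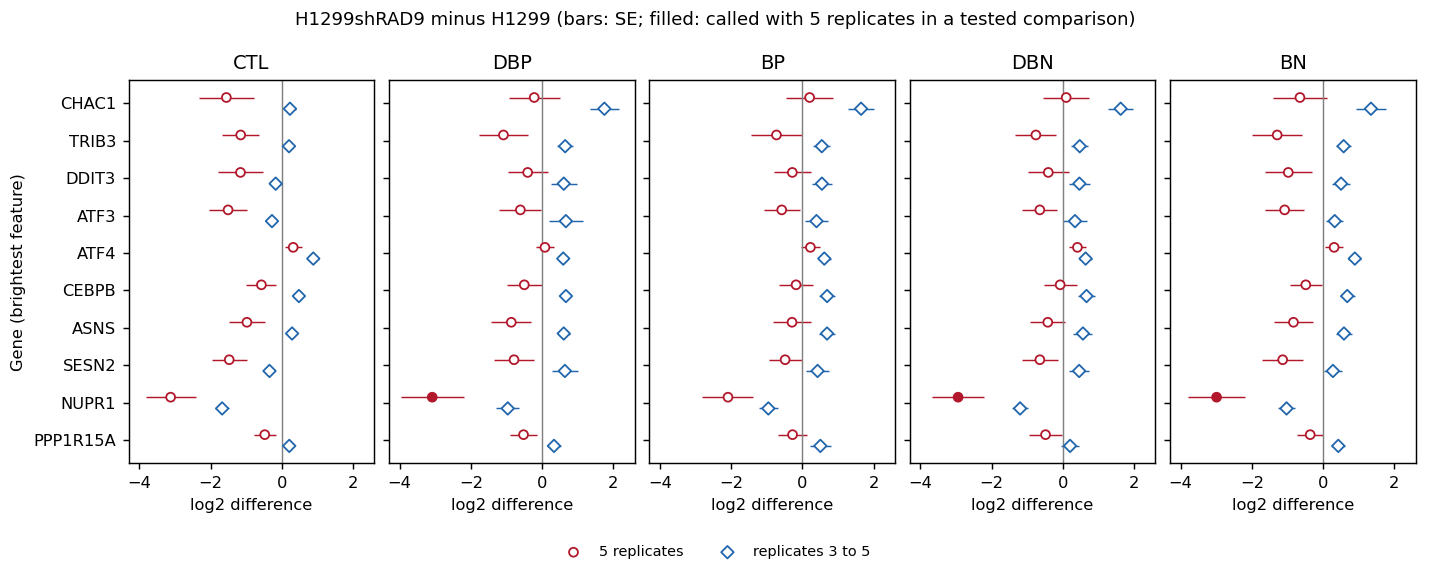
Log2 difference of the brightest feature of each member between H1299shRAD9 and H1299 (x axis; bars are SE) in each exposure, with all 5 replicates (circles, filled where called in a tested comparison) and with replicates 3 to 5 alone (diamonds, not tested). NUPR1 lay below 0 in all panels and both settings, and CHAC1 lay between -1.56 and 0.20 with 5 replicates and between 0.23 and 1.75 with 3.

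The members tracked each other from array to array. Over the 25 arrays of H1299, Pearson's r between brightest features ran from 0.743 to 0.98 over the 45 pairs, with a median of 0.915, and in H1299shRAD9 from 0.401 to 0.973, with a median of 0.862. Once the means of group and replicate number were removed, the medians were 0.66 and 0.83. ATF4 was the exception in H1299shRAD9, where its r with CHAC1 was 0.556 over 25 arrays and -0.14 over the 15 arrays of replicates 3 to 5. The arrays share groups, replicate numbers and slides, so r is given as a description.

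Among 15809 genes, the non-members whose levels were most like those of CHAC1 over the 25 H1299 arrays were ADM2 (r = 0.985), the secreted peptide adrenomedullin 2, PCK2 (0.981), the mitochondrial form of PEP carboxykinase, and PHGDH (0.971), the first enzyme of serine synthesis. STC2, MGC16121, JDP2, ENST00000449075, CEBPG, XBP1 and LOC283454 followed, down to 0.952. Over the 15 arrays of H1299 replicates 3 to 5 alone, r was 0.91 for ADM2, 0.87 for PCK2 and 0.56 for PHGDH. For the others it ran from 0.28 (MGC16121) to 0.63 (JDP2), so most of this list rested on replicates 1 and 2. Over the 25 H1299shRAD9 arrays the first were SRXN1 (0.937), PCK2 (0.929), HMOX1 (0.921) and TXNRD1 (0.911), of which SRXN1, HMOX1 and TXNRD1 are known targets of the oxidative stress factor NRF2. ZNF469, ADM2, OSGIN1, CTH, GDF15 and STC2 followed, down to 0.890. In replicates 3 to 5 of this line alone, r ran from 0.85 (PCK2) to 0.95 (STC2). ADM2, PCK2 and STC2 were in both lists of 10.

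The rest of the pathway was read from 5 gene lists. Of 10 kinases and regulators of eIF2α, 4 genes were tested, and only EIF2AK2 (PKR), the sensor of double-stranded RNA, was called: it was higher than CTL by 0.62 in DBP, 0.58 in BP and 0.88 in DBN of H1299shRAD9. EIF2AK4 (GCN2), the sensor of uncharged tRNA, differed by 0.12 in H1299shRAD9 DBP. Of 16 other ATF4 and CHOP targets (15 features tested), 2, 3 and 3 were called higher in these contrasts, where 1.78%, 2.33% and 4.78% of all features were called, among them ADM2 (0.89 and 0.59 in DBP and BP) and GDF15 (0.72 and 0.92 in BP and DBN), a secreted stress cytokine.

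Of 21 features for amino acid synthesis and transport, 1 was called higher in each contrast, in DBN no more than the 4.78% of all features would give, PCK2 in DBP (0.60) and BP (0.63) and the neutral amino acid transporter SLC38A2 in DBN (0.56). Of 15 tRNA synthetase features 1, 2 and 2 were called, beside the same 1.78%, 2.33% and 4.78%, IARS in all 3 contrasts (0.65, 0.63 and 0.94) and LARS in BP and DBN (0.79 in both). Of 12 features for ER chaperones, which answer to the ATF6 and XBP1 branches, none was called in any of the 17 comparisons by limma. Of all features, 0% to 15.5% were called in these comparisons. None of the 5 lists had a call in H1299 against CTL, in H1299shRAD9 BN against CTL or between direct and bystander cells. Only 0% to 0.131% of all features were called there, so the lack of calls says little about the lists. Unadjusted p values under 0.05 were found there, as for SLC38A2, 0.53 higher in BN than in CTL of H1299shRAD9 (limma adjusted p = 0.157).

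Between the lines after irradiation, PCK2 differed by -1.48 in H1299shRAD9 DBP (limma adjusted p = 0.0732), PHGDH by -1.40 in DBN (adjusted p = 0.0918 in limma) and LARS by 1.05 in DBN (limma adjusted p = 0.0553). In DBP 2 of 21 features of amino acid supply were called lower, where 7.39% of all features were called. In DBN 1 of 21 was called lower and 1 of 15 tRNA synthetase features higher, beside 5.55% of all features. In unirradiated cells GDF15, DDIT4, PCK2 and PHGDH differed by -2.79, -1.91, -1.88 and -1.37. Called lower there were 2 of 15 features of the other ATF4 and CHOP targets and 3 of 21 of amino acid supply. No feature of these lists was called higher. Of all 12206 features 938 were called lower and 955 higher, which together make the 15.5% called. These counts are a description. For the genes named here no difference without replicates 1 and 2 was computed. Over the H1299 arrays PCK2 and PHGDH followed CHAC1 (r = 0.981 and 0.971), which was high on most arrays of those replicates.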

How the data were processed

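Gene expression was measured in 50 samples on one-colour Agilent 4x44K arrays, 5 per group. Per the file headers, the deposited intensity values are processed signals from Feature Extraction, background-subtracted and detrended by the authors before deposit. Marked outlier and control spots were left out, spots of 1 probe were averaged, and values were taken as log2 and centred on the median of each array. Of 34127 features, 20100 failed the background criterion (well above background) on fewer than 25% of arrays, and 12206 of these also differed at least 1.3-fold from their median on 20% of arrays. The authors' normalized log2 values, deposited with the series, were matched to 9476 features (r of at least 0.9994) and used as an alternative. Their array medians were 8.86 to 9.30, and 10 member features were among them.

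Groups were compared with limma 3.58.1 in R 4.3.3 (with data.table, version 1.17.8), with Benjamini-Hochberg adjustment over all 12206 features. Comparisons within a line kept the replicate number as a block, after the paired test of the study's methods, and those between lines did not. A feature was called at p under 0.006, or 0.005 for the unirradiated lines, with an FDR under 10%. Same-numbered arrays deviated together, with a mean correlation of 0.487 to 0.615 in the 6 H1299shRAD9 comparisons, where all 5 pairs exceeded 0.1, and of 0.139 to 0.414 in the 6 H1299 comparisons, where all 5 did in DBP and BN against CTL only. The scripts were tested on simulated data. All 10 members are named with every probe, and from each other list the 3 genes with the largest mean absolute difference, called ones first. The members and lists were chosen with earlier results of these data known. Alternatives were another scaling, normexp background correction, other filters, fits with and without blocks for replicate or slide, the authors' values, and leaving out each replicate. Replicates 3 to 5 alone, and the omission of the H1299 BP 1 array, were added after seeing the data. Some marker genes are not reported here.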

Additional observations from a re-analysis of the deposited data

Results flagged for a closer look

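In 24 of 140 sets of 5 arrays (14 features in 10 groups), 1 array stood apart by Dixon's ratio, the gap from that array to its nearest neighbour divided by the range of the group. Chance gives about 1 in 20 where sets are separate. These sets share arrays and the members move together, so the count cannot be set against that rate. All 24 were the highest array of their group, and 21 were H1299 arrays numbered 2.

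H1299 BP 2 stood apart for NUPR1 (ratio 0.929), CHAC1 (0.813 and 0.888 for its brighter and dimmer features), TRIB3 (0.937), SESN2 (0.928), CEBPB (0.888), ASNS (0.869), ATF3 A_23_P34915 (0.850), ATF4 (0.817), PPP1R15A (0.816) and DDIT3 (0.792). H1299 DBN 2 did for TRIB3 (0.857), ATF3 A_24_P33895 (0.808), PPP1R15A (0.796), SESN2 (0.773), DDIT3 (0.742) and CEBPB (0.727). H1299 DBP 2 did for DDIT3 (0.836) and for ATF3 A_24_P33895 (0.822) and A_23_P34915 (0.780), and H1299 CTL 2 for DDIT3 (0.802). In BP the brighter CHAC1 feature read 6.76 on that array and 3.73 on the next.

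In H1299shRAD9, CTL 4 stood apart for the dimmer CHAC1 feature (0.848) and for ATF3 A_24_P33895 (0.867), which was rarely above background there, and BN 3 for ATF3 A_33_P3214105 (0.816). In none of 56 sets of effects compared between the lines did every array pair of one line move up while every pair of the other moved down.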

How the results depend on the processing

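The 6 member calls in H1299shRAD9 DBP, BP and DBN against CTL fell to 0 without the replicate block, 1 with slide as a block, 1 with slide as a random block, 3 with the authors' values and 0 with replicates 3 to 5 alone, and ranged from 0 to 5 when each replicate was left out. Normexp gave 9. CHAC1 stayed higher than CTL in all 3 under every setting run. The 2 calls between the unirradiated lines became 1 with the replicate block, 1 with the authors' values, 3 (2 higher and 1 lower) with replicates 3 to 5 alone and 1 to 2 without each replicate. The 3 calls of NUPR1 between the irradiated lines became 1 under normexp, 2 with the replicate block, 9 (7 higher, 2 lower, other members included, and no support, since the arrays left out were chosen after seeing them) with replicates 3 to 5 alone and 0 to 3 without each replicate. With replicates 3 to 5 alone, 27% of all features were called between the unirradiated lines. Between the irradiated lines 28.2%, 9.51%, 11.7% and 14.8% of all features were, in DBP, BP, DBN and BN. In H1299 against CTL, H1299shRAD9 BN against CTL and direct against bystander cells the count of member calls was 0 under every setting run. Single values that turned direction were DDIT3 between H1299 DBN and BN, at 0.11 under normexp and 0.071 with replicates 3 to 5 alone, and TRIB3 in H1299 BN against CTL, at -0.39 under normexp. The cause was not tested. Of the other single values, 251 kept their direction and side of the threshold, 72 fell short of it and 1 newly passed. Slide as a block could not be fitted in 5 comparisons, nor as a random block in 4. Probes near background, such as the second CHAC1 feature in H1299shRAD9 CTL (above background on 2 of 5 arrays), limit how far low levels can be read.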
